A study of Mus musculus with 12 samples.

Results

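The genes described here are 7 transcription factors of the primitive streak and mesendoderm, *T*, *Eomes*, *Mixl1*, *Gsc*, *Foxa2*, *Evx1* and *Mesp1*. They were taken by symbol from the 50978 genes of the deposited expression table. RNA was sequenced from 3 lines of mouse embryonic stem cells (ESCs), and that table holds 2 libraries per line, labelled as replicates. Parental ESCs were the E14 line, grown without feeders in medium with 15% serum and LIF. ESC + H/F-PRAMEL7_WT and ESC + H/F-PRAMEL7_ΔN were derived from them and grown alike. Both carry *Pramel7* with an HA/FLAG tag, placed into *Rosa26* with Cas9 and driven by the CAG promoter, and each is a clone of a single cell. PRAMEL7_ΔN lacks the N-terminus, given in the sample labels as a deletion of 50 amino acids and in the study's text with another length, through which PRAMEL7 binds CUL2, the scaffold of a ubiquitin ligase. The comparisons ask what each form of PRAMEL7 does to these genes relative to parental ESCs, and whether the forms differ. With a single clone per derived line, effects of the inserted form, of its RNA level and of the clone cannot be told apart. The p-values measure the spread between libraries of the same line.

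The primitive streak is the region of the early embryo where epiblast cells leave the epithelium and become mesoderm and endoderm. Nodal, Wnt and BMP signals induce it, and the T-box factors Brachyury (*T*) and Eomes, the homeodomain factors Mixl1, Gsc and Evx1, the forkhead factor Foxa2 and the bHLH factor Mesp1 are switched on there in overlapping domains. In ESCs kept pluripotent these genes are silent or low, and their transcripts serve as signs of cells that have begun to leave pluripotency. In RNA from whole dishes, a change in the number of such cells and a change in RNA per cell cannot be told apart.

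The 3 promoters below belong to *T*, *Eomes* and *Evx1*, the members whose reads differed most clearly between lines. Of the 7 members, 6 matched a RefSeq promoter entry and *Mixl1* did not. Each sequence is the 250 bases before the annotated start, written along the strand of the gene, from RefSeq on GRCm38.p6. All 3 genes lie on the plus strand, *T* at chr17:8434173-8434422, *Eomes* at chr9:118477939-118478188 and *Evx1* at chr6:52313248-52313497. Capitals mark exact matches of CTTTGA, the core of the TCF/LEF site of Wnt signalling, on either strand.
T: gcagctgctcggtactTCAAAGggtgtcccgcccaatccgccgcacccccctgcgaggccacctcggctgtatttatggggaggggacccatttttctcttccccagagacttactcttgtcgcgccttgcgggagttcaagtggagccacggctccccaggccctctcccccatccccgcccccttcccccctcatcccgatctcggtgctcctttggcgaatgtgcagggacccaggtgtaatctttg
Eomes: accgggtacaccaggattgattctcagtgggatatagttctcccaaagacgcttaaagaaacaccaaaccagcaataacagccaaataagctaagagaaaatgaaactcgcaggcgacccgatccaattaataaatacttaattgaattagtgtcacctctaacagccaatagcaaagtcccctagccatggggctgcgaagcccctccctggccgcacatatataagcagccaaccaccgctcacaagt
Evx1: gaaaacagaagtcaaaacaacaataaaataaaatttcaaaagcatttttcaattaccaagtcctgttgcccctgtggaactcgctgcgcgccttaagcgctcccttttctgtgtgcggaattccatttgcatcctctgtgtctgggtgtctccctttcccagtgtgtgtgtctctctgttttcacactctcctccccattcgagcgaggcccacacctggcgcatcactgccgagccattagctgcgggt
The *T* promoter held 1 TCF/LEF match, beginning 234 bases before the start on the opposite strand, and those of *Eomes* and *Evx1* held none. *Mesp1* held 2, beginning 72 and 31 bases before the start. This core occurred in 13.8% of the 32851 promoters of the same length. The T-box site TCACACC, the FOXH1 site ATCCACA, the SMAD site GTCTAGA, the forkhead site TGTTTAC and the homeodomain site TAATTA were searched in the same way. None of them was matched in the windows of the 6 members, against 3.33%, 2.78%, 1.83%, 3.17% and 4.84% of all promoters. The E-box CANNTG matched in 5 of the 6 members, in *T* at 3 positions, in *Evx1* and *Mesp1* at 2 each and in *Gsc* and before 1 of the *Foxa2* starts at 1 each, and 66.2% of all promoters held it. TATAAA matched in *Gsc* and before the same *Foxa2* start, and in 12.4% of all promoters. No match overlapped another. These letters describe the windows and do not show binding.

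The inserted gene was read first as a check of the labels. *Pramel7* had 5 and 4 reads in the parental libraries, 1011 and 840 in ESC + H/F-PRAMEL7_WT and 7923 and 8161 in ESC + H/F-PRAMEL7_ΔN. It was thus high in both lines that carry it, as the labels require. Its reads in ESC + H/F-PRAMEL7_ΔN were 8.48-fold those of ESC + H/F-PRAMEL7_WT (counting interval 8.08 to 8.9), a gap the labels do not give. The derived lines therefore differ in the form of PRAMEL7 and in the level of its RNA, and these cannot be told apart. Each library held between 18254244 and 19855030 reads on genes, so that 1 read was worth 0.0502 to 0.0551 CPM, the depth-scaled unit used here. The ESC factors were abundant everywhere, with 659 to 856 CPM of *Pou5f1* and 454 to 692 CPM of *Nanog*. A total of 12914 genes passed the filter of more than 1 CPM in at least 2 libraries and were tested with limma on log2(CPM + 1), where a call is an adjusted p below 0.05.

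The 7 members had 131 and 99 reads together in the parental libraries, 102 and 134 in ESC + H/F-PRAMEL7_WT and 219 and 235 in ESC + H/F-PRAMEL7_ΔN. *Eomes* held between 72.5% and 86.3% of them. The other 6 members summed to 36 and 20 reads in the parental line, 14 and 26 in ESC + H/F-PRAMEL7_WT and 37 and 34 in ESC + H/F-PRAMEL7_ΔN. Only *Eomes* passed the filter. *Evx1* exceeded 1 CPM in 1 library alone, and the remaining 5 members in none, so these 6 are described by their reads with counting intervals, which cover counting error only.

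**Figure D1:**
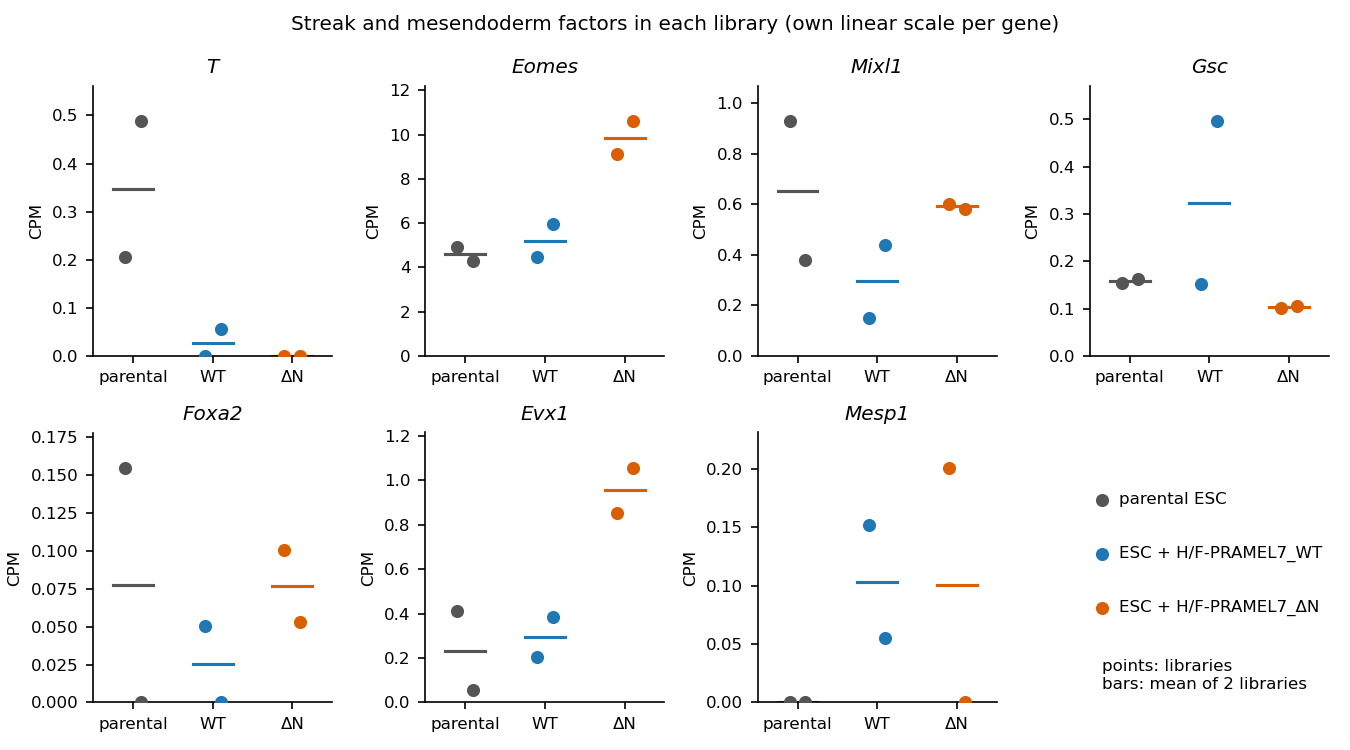
CPM of each member on its own linear axis, with 1 point per library and a bar at the mean of the 2 libraries of a line. Both ΔN libraries of *Eomes* (9.14 and 10.6 CPM) and of *Evx1* lie above the other 4, and both parental libraries of *T* (0.206 and 0.488 CPM) lie above the other 4.

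Compared per kilobase of exon, *Eomes* had the highest level of the members in every line. In parental ESCs its mean was 1.10 CPM per kb, followed by *Mixl1* with 0.285, *T* with 0.150, *Gsc* with 0.125, *Evx1* with 0.0812 and *Foxa2* with 0.0327, and no read fell on *Mesp1*. From *Mixl1* to *Foxa2*, the libraries of each neighbouring pair in this order overlapped, so only *Eomes* stood apart. In ESC + H/F-PRAMEL7_WT the order below *Eomes* was *Gsc*, *Mixl1*, *Evx1*, *Mesp1*, *T* and *Foxa2*, and among these 6 only *Mesp1* and *T* were neighbours whose libraries did not overlap. In ESC + H/F-PRAMEL7_ΔN, *Eomes* had 2.38 CPM per kb and *Evx1* came next with 0.332, above *Mixl1* with 0.258 and *Gsc* with 0.0812 without overlap of their libraries. *T*, which held the third place in parental ESCs, was last in ESC + H/F-PRAMEL7_ΔN with 0 reads.

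*Eomes*, on chromosome 9 from 118478212 to 118486132 (mm10), encodes the T-box factor needed for definitive endoderm and the earliest mesoderm, and acts in the trophoblast as well. The parental libraries had 95 and 79 reads, those of ESC + H/F-PRAMEL7_WT 88 and 108, and those of ESC + H/F-PRAMEL7_ΔN 182 and 201. The parental and ESC + H/F-PRAMEL7_WT libraries overlapped, whereas both ESC + H/F-PRAMEL7_ΔN libraries lay above them. The level was 4.59 ± 0.44 CPM (SD, n = 2) in the parental line, 5.20 ± 1.05 CPM (SD, n = 2) in ESC + H/F-PRAMEL7_WT and 9.87 ± 1.04 CPM (SD, n = 2) in ESC + H/F-PRAMEL7_ΔN.

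Relative to parental ESCs, *Eomes* rose in ESC + H/F-PRAMEL7_ΔN, with a log2 fold change of 0.96 (SE 0.17, adjusted p = 0.00513 from limma) and a 2.14-fold ratio of summed reads (95% counting interval 1.79 to 2.58). In this comparison 6.25% of all tested genes were called higher, or 807 genes, and 13.6% lower, or 1759 genes. After rescaling by the median of ratios those counts were 1122 and 1368. Without replicate 2 of ESC + H/F-PRAMEL7_ΔN, the adjusted p of *Eomes* from limma was 0.0579, and over all alternatives it lay between 0.000677 and 0.0579. Fitted as log2(deposited value + 1), without conversion to CPM, *Eomes* had a log2 fold change of 0.13, still a call. The conversion multiplies a gene by the same factor in all libraries. The ratio between lines is thus unchanged, and the added 1 shrinks the difference of small values.

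In ESC + H/F-PRAMEL7_WT, the log2 fold change of *Eomes* over parental ESCs was 0.14, with a 95% interval from -0.25 to 0.53 (adjusted p = 0.58 from limma). The ratio of summed reads was 1.12 (counting interval 0.911 to 1.39). Of all tested genes, 8.71% were called higher (1125) and 16.3% lower (2109), and the counts were 1673 and 1495 after the median-ratio rescaling.

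The derived lines differed from each other in *Eomes*. ESC + H/F-PRAMEL7_WT against ESC + H/F-PRAMEL7_ΔN gave a log2 fold change of -0.82 (SE 0.17, adjusted p = 0.0108 from limma), where 9.44% of the tested genes were called lower and 10.9% higher in ESC + H/F-PRAMEL7_WT. This call was lost in 3 fits, with adjusted p = 0.0624 from limma without a filter, 0.116 without replicate 1 of ESC + H/F-PRAMEL7_WT and 0.112 without replicate 2 of ESC + H/F-PRAMEL7_ΔN. The reads of ESC + H/F-PRAMEL7_ΔN exceeded those of ESC + H/F-PRAMEL7_WT 1.91-fold (counting interval 1.60 to 2.28).

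*T*, on chromosome 17 from 8434423 to 8442496, encodes Brachyury, the factor that drives mesoderm formation and marks the streak. The parental libraries had 4 and 9 reads, ESC + H/F-PRAMEL7_WT had 0 and 1, and ESC + H/F-PRAMEL7_ΔN had 0 and 0. The libraries of both derived lines were therefore below both parental ones, with 1 and 0 reads where parental ESCs had 13. The ratio of summed reads was 13.0-fold lower in ESC + H/F-PRAMEL7_WT (counting interval 1.96 to 554) and at least 4.45-fold lower in ESC + H/F-PRAMEL7_ΔN, set against a floor of 3 reads over the line. Among genes with at least 10 reads in all, 20.5% likewise had both derived lines below both parental libraries.

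Because *T* missed the filter, whole reads recovered from the values were fitted with limma voom for the 17589 genes with at least 10 reads, a setting chosen after seeing the data. There *T* in ESC + H/F-PRAMEL7_ΔN against parental ESCs passed with an adjusted p = 0.0368, where 10.1% of the genes were called lower. Limma without a filter gave an adjusted p of 0.0559 for this comparison. For ESC + H/F-PRAMEL7_WT against parental ESCs the adjusted p from limma was 0.0779 with voom, where 11.4% were called lower, and 0.0675 without a filter. The call on *T* thus depended on the fit, and each rests on 13 parental reads.

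*Evx1*, on chromosome 6 from 52313498 to 52318378, encodes a homeodomain factor of the posterior streak. Its reads were 8 and 1 in the parental line, 4 and 7 in ESC + H/F-PRAMEL7_WT and 17 and 20 in ESC + H/F-PRAMEL7_ΔN. Both ESC + H/F-PRAMEL7_ΔN libraries exceeded the other 4. Among the members with at least 10 reads, *Eomes* and *Evx1* showed this order, as did 11.3% of all genes with at least 10 reads. The summed reads in ESC + H/F-PRAMEL7_ΔN were 4.0-fold those of parental ESCs (counting interval 1.90 to 9.43) and 3.28-fold those of ESC + H/F-PRAMEL7_WT (counting interval 1.64 to 7.13). The added limma voom fit gave adjusted p = 0.0539 against parental ESCs and 0.103 between the derived lines, and limma without a filter gave 0.0575 and 0.0862, so *Evx1* passed in neither. Voom called 4.43% of the genes higher in ESC + H/F-PRAMEL7_ΔN than in parental ESCs.

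**Figure D2:**
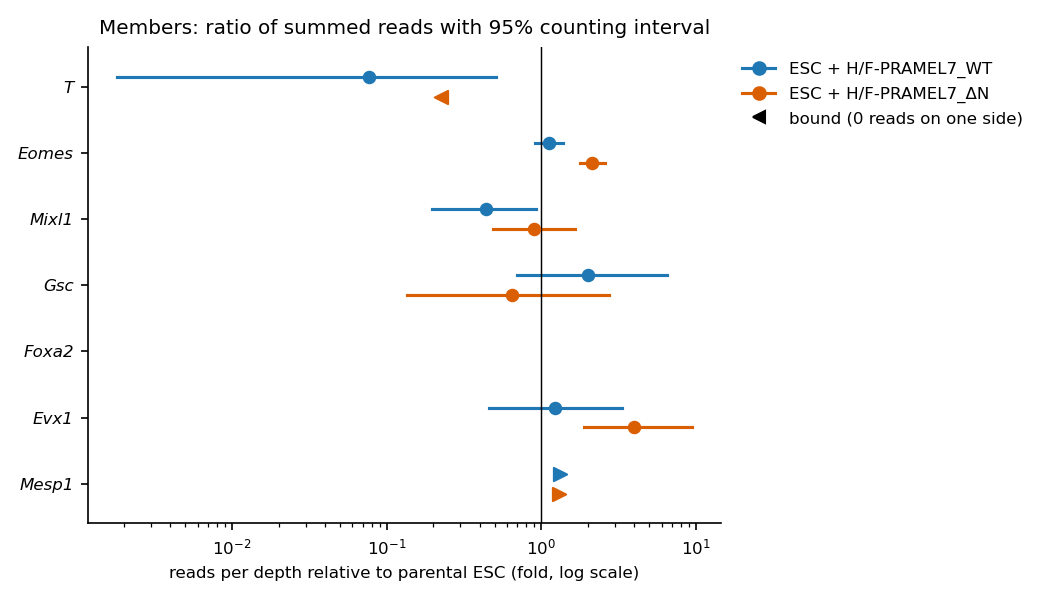
Reads per depth of each member in the derived lines relative to parental ESCs, on a log axis, with bars for the 95% counting interval and triangles for ratios against a floor of 3 reads. The triangles, called bounds in the legend, leave out counting error. The intervals of *Eomes* (2.14-fold) and *Evx1* (4.0-fold) in ΔN lie above 1 and those of *T* and *Mixl1* in WT below it. *Foxa2*, at or under the floor in all lines, has no ratio.

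*Evx1* lies on a chromosome whose genes differed as a whole between the lines. The median log2 fold change of the 603 genes tested on chromosome 6 was 0.25 in ESC + H/F-PRAMEL7_ΔN and -0.26 in ESC + H/F-PRAMEL7_WT, against -0.06 and -0.08 over all tested genes. Within 5 Mb of the start of *Evx1*, 61 genes were tested, with a median of 0.28 in ESC + H/F-PRAMEL7_ΔN, where 19 were called higher and 2 lower, and -0.15 in ESC + H/F-PRAMEL7_WT. On the log2 scale *Evx1* itself differed by 0.68 between ESC + H/F-PRAMEL7_ΔN and parental ESCs, and 8 of the 61 neighbours differed by more. Less the median of its chromosome, the difference of *Evx1* was 0.43. The part of the regional shift in the reads of *Evx1* was not tested. The antisense gene *Evx1os* overlaps *Evx1* by 1335 bases, and the sources used here do not state whether counting used the strand. It had 0 and 0 reads in the parental line, 4 and 1 in ESC + H/F-PRAMEL7_WT and 0 and 3 in ESC + H/F-PRAMEL7_ΔN.

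The surroundings of *Eomes* showed no such shift. The 731 other genes tested on chromosome 9 had a median of -0.03 in ESC + H/F-PRAMEL7_ΔN, and the 74 tested within 5 Mb had -0.04, with 8 called higher and 7 lower. Of these 74 neighbours, 1 had a larger log2 fold change than the 0.96 of *Eomes*. A gene on the opposite strand, *Gm33460*, overlaps *Eomes* by 574 bases and had between 0 and 9 reads per library.

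**Figure D3:**
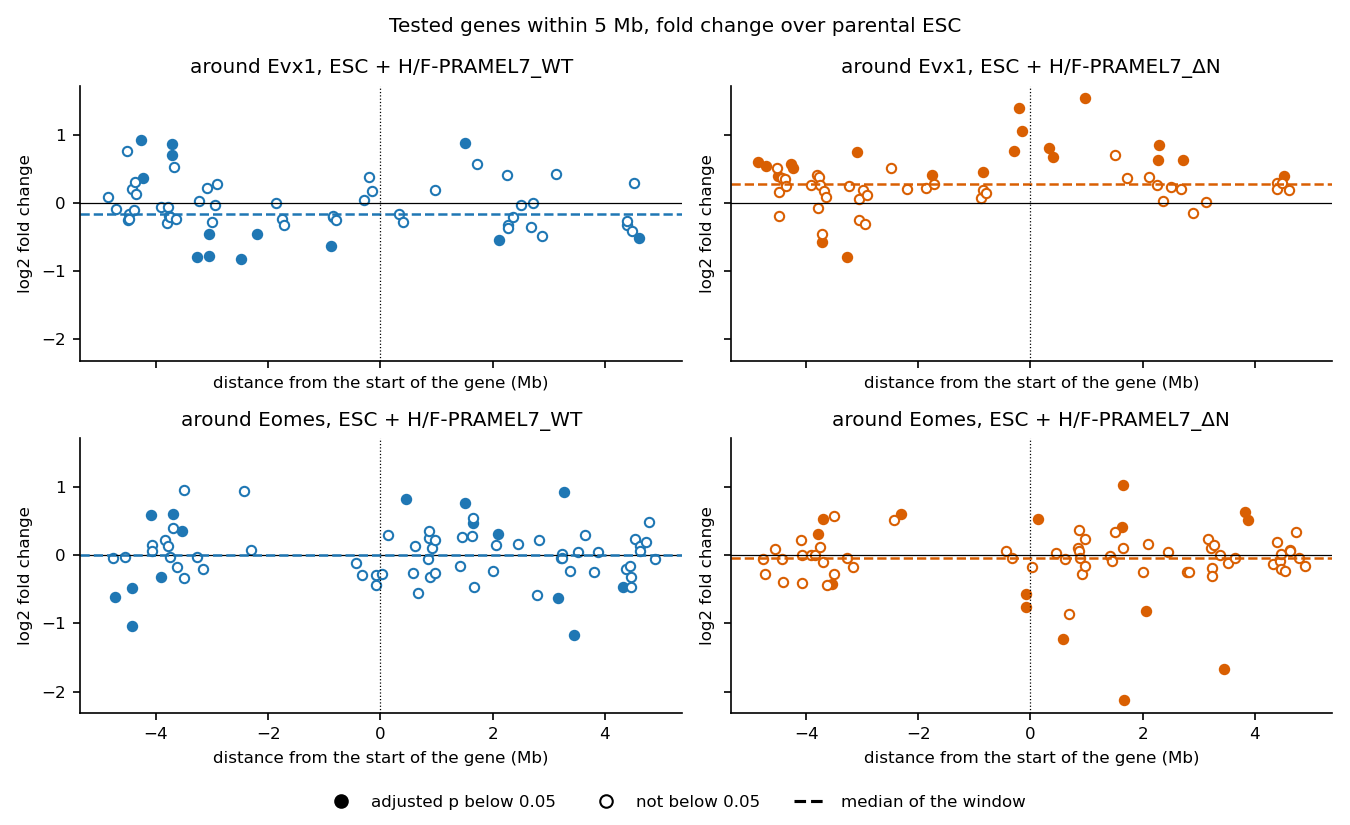
Log2 fold change over parental ESCs of each tested gene within 5 Mb, against its distance in Mb from the start of *Evx1* (top) or *Eomes* (bottom), for WT (left) and ΔN (right). Filled points have an adjusted p below 0.05 from limma and the dashed line is the median. Around *Evx1* in ΔN the median is 0.28, and around *Eomes* in ΔN it is -0.04.

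*Mixl1*, on chromosome 1 from 180693043 to 180697034 on the minus strand, encodes a homeodomain factor of the streak that acts in endoderm formation. It had 18 and 7 reads in the parental line, 3 and 8 in ESC + H/F-PRAMEL7_WT and 12 and 11 in ESC + H/F-PRAMEL7_ΔN. The parental libraries overlapped with those of both derived lines, while ESC + H/F-PRAMEL7_WT lay below ESC + H/F-PRAMEL7_ΔN, as did 31.3% of the genes with at least 10 reads. Summed reads were 2.28-fold lower in ESC + H/F-PRAMEL7_WT than in parental ESCs (counting interval 1.08 to 5.13), and the added limma voom fit gave an adjusted p = 0.27. In ESC + H/F-PRAMEL7_ΔN the ratio to parental ESCs was 0.895 (counting interval 0.485 to 1.64).

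*Gsc*, on chromosome 12 from 104471209 to 104473330 on the minus strand, encodes the homeodomain factor Goosecoid of the anterior streak. It had 3 and 3 reads in the parental line, 3 and 9 in ESC + H/F-PRAMEL7_WT and 2 and 2 in ESC + H/F-PRAMEL7_ΔN. A single library, replicate 2 of ESC + H/F-PRAMEL7_WT, stood above the rest. The ratio of summed reads in ESC + H/F-PRAMEL7_WT over parental ESCs was 1.99 (counting interval 0.693 to 6.48), and neither line passed in the limma voom fit, with adjusted p = 0.585 in ESC + H/F-PRAMEL7_WT and 0.752 in ESC + H/F-PRAMEL7_ΔN.

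*Foxa2* and *Mesp1* were at the edge of detection. *Foxa2*, a forkhead factor of the node and endoderm on chromosome 2 from 148042877 to 148046969, had 3 and 0 reads in the parental line, 1 and 0 in ESC + H/F-PRAMEL7_WT and 2 and 1 in ESC + H/F-PRAMEL7_ΔN. *Mesp1*, the bHLH factor of nascent cardiac mesoderm on chromosome 7 from 79792241 to 79793788, had no read in the parental line, 3 and 1 in ESC + H/F-PRAMEL7_WT and 4 and 0 in ESC + H/F-PRAMEL7_ΔN. Its 4 reads in each derived line were 1.33-fold and 1.3-fold a floor of 3 parental reads, without counting error. A difference of either gene was not detectable at this depth. Both lie on the minus strand.

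With 1 of the 7 members tested, the calls among them were those of *Eomes* alone, 0 of 1 in ESC + H/F-PRAMEL7_WT against parental ESCs (8.71% of all tested genes higher and 16.3% lower), 1 of 1 higher in ESC + H/F-PRAMEL7_ΔN (6.25%) and 1 of 1 lower in ESC + H/F-PRAMEL7_WT against ESC + H/F-PRAMEL7_ΔN (9.44%). Both comparisons with parental ESCs share the same 2 parental libraries.

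Among the 8560 genes tested with a mean of at least 10 CPM, those whose log2 values followed *Eomes* most closely over the 6 libraries were *Tsc22d1* (Pearson's r = 0.995), *Dppa4* (0.991) and *Bdh1* (0.991). These describe 6 libraries from 3 lines and share their depth. *Tsc22d1* had 269 and 241 CPM in the parental line, 251 and 290 in ESC + H/F-PRAMEL7_WT and 416 and 436 in ESC + H/F-PRAMEL7_ΔN. *Dppa4*, a gene of pluripotent cells, had 80.1 and 77.4, 80.0 and 83.1, and 97.1 and 99.9 CPM in the same order.

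Other streak and mesoderm transcription factors were mostly as scarce as the members. Of 18 listed, 5 were tested, and *Msgn1*, *Hoxb1* and *Foxf1* had no read in any library. None of the 5 was called in ESC + H/F-PRAMEL7_WT, where their median log2 fold change was 0.14 against -0.08 over all tested genes. In ESC + H/F-PRAMEL7_ΔN 2 were called higher (6.25% of all tested genes), with a median of 0.43 against -0.06. *Cdx1* and *Hand1* exceeded 1 CPM only in the ESC + H/F-PRAMEL7_ΔN libraries and so were tested through the line where they were higher. That median is the value of *Cdx1*, and with the call of *Hand1* it is no support for a rise of the list. *Tcf15*, a bHLH factor of paraxial mesoderm that is also expressed in ESCs, had 17.3 and 19.2 CPM in the parental line, 19.4 and 21.0 in ESC + H/F-PRAMEL7_WT and 26.1 and 31.8 in ESC + H/F-PRAMEL7_ΔN (log2 fold change 0.63, adjusted p = 0.0102 from limma). *Hand1*, of lateral mesoderm and trophoblast, rose in ESC + H/F-PRAMEL7_ΔN from 0.619 and 0.542 CPM to 1.66 and 1.53 CPM (log2 fold change 0.71, adjusted p = 0.021 from limma). *Tbx6*, a T-box factor of paraxial mesoderm, remained below 1 CPM in all libraries.

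Genes of definitive endoderm moved in both directions. Of 10 listed, 5 were tested, *Cer1* had no read and *Sox17* stayed between 0.0516 and 0.211 CPM. *Gata4*, a zinc finger factor of endoderm and heart, rose from 1.08 ± 0.45 CPM (SD, n = 2) in the parental line to 2.32 ± 0.09 in ESC + H/F-PRAMEL7_WT and 2.52 ± 0.20 in ESC + H/F-PRAMEL7_ΔN, with adjusted p = 0.0299 and 0.0216 from limma. *Otx2*, a homeodomain factor of epiblast and anterior endoderm, rose in ESC + H/F-PRAMEL7_WT from 43.9 ± 0.62 to 62.6 ± 1.03 CPM (adjusted p = 0.00901 from limma) and fell in ESC + H/F-PRAMEL7_ΔN to 22.6 ± 1.99 CPM (adjusted p = 0.00052 from limma; SD, n = 2 for each). *Hnf4a*, a nuclear receptor of visceral endoderm and liver, fell in ESC + H/F-PRAMEL7_ΔN from 0.929 and 1.30 CPM to 0 and 0.0528 CPM (adjusted p = 0.00678 from limma). *Hnf4a* exceeded 1 CPM only in replicate 2 of parental ESCs and replicate 1 of ESC + H/F-PRAMEL7_WT. It was thus tested through the lines where it was higher. *Cxcr4*, a chemokine receptor of endoderm, fell in ESC + H/F-PRAMEL7_WT (log2 fold change -0.60, adjusted p = 0.0321 from limma).

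The signals that induce the streak were better expressed, with 21 of 27 genes tested. In ESC + H/F-PRAMEL7_WT 4 were called higher and 5 lower, where 8.71% and 16.3% of all tested genes were. In ESC + H/F-PRAMEL7_ΔN 3 were called higher and 6 lower, where 6.25% and 13.6% of all tested genes were. The median log2 fold changes of the 21 genes were -0.02 and -0.05, near those of all tested genes. In the Nodal pathway, the ligand *Nodal* had 33.8 ± 1.13 CPM in the parental line, 33.3 ± 0.67 in ESC + H/F-PRAMEL7_WT and 38.4 ± 1.90 in ESC + H/F-PRAMEL7_ΔN (SD, n = 2) and was called in neither line (adjusted p = 0.893 and 0.263 from limma). The Nodal inhibitors and targets *Lefty1* and *Lefty2* fell in ESC + H/F-PRAMEL7_ΔN, *Lefty2* from 264 and 266 CPM to 82.0 and 84.4 CPM (log2 fold change -1.66, SE 0.08, adjusted p = 4e-06 from limma) and *Lefty1* with a log2 fold change of -0.84 (adjusted p = 0.00225 from limma). *Lefty1* rose in ESC + H/F-PRAMEL7_WT by 0.70 on the log2 scale (adjusted p = 0.00557 from limma) and *Lefty2* had 0.15 (adjusted p = 0.194 from limma).

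*Smad3*, which carries the Nodal signal into the nucleus, rose in ESC + H/F-PRAMEL7_WT (log2 fold change 0.75, adjusted p = 0.00557 from limma) and fell in ESC + H/F-PRAMEL7_ΔN (-0.53, adjusted p = 0.0251 from limma). *Foxh1*, its DNA-binding partner, fell in ESC + H/F-PRAMEL7_ΔN (-0.38, adjusted p = 0.0354 from limma). The ligand *Gdf3* rose in ESC + H/F-PRAMEL7_ΔN (0.53, adjusted p = 0.0203 from limma), and less the median of chromosome 6, where it lies, its difference was 0.28. The Nodal co-receptor *Tdgf1* and the receptor *Acvr2a* fell in ESC + H/F-PRAMEL7_WT (-0.34 and -0.46, adjusted p = 0.0258 and 0.0478 from limma). *Bmp4*, the BMP ligand that acts on the posterior epiblast, rose in ESC + H/F-PRAMEL7_ΔN from 38.0 and 40.5 CPM to 71.3 and 59.9 CPM (log2 fold change 0.72, adjusted p = 0.00408 from limma). The FGF receptor *Fgfr1* rose in ESC + H/F-PRAMEL7_WT (0.57, adjusted p = 0.00439 from limma).

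In the Wnt pathway, 3 genes were called in both derived lines. *Axin2*, a target and inhibitor of Wnt signalling, fell from 10.7 and 10.9 CPM in parental ESCs to 5.72 and 5.84 in ESC + H/F-PRAMEL7_WT (adjusted p = 0.00691 from limma) and 4.01 and 3.17 in ESC + H/F-PRAMEL7_ΔN (adjusted p = 0.00056 from limma). *Tcf7*, a TCF/LEF factor, fell by 0.74 and 0.72 on the log2 scale (adjusted p = 0.00135 and 0.00101 from limma), and *Lef1*, another, fell in ESC + H/F-PRAMEL7_WT (-0.52, adjusted p = 0.0336 from limma) and had -0.46 in ESC + H/F-PRAMEL7_ΔN (adjusted p = 0.0596 from limma). *Tcf7l1*, the repressive member of that family, rose from 38.5 ± 1.69 CPM to 75.6 ± 5.90 in ESC + H/F-PRAMEL7_WT and 68.6 ± 3.59 in ESC + H/F-PRAMEL7_ΔN (SD, n = 2; adjusted p = 0.000818 and 0.000804 from limma). *Axin2* and *Tcf7* lie on chromosome 11, whose 1102 tested genes had a median log2 fold change of -0.36 in ESC + H/F-PRAMEL7_WT and -0.33 in ESC + H/F-PRAMEL7_ΔN, and their differences less that median were -0.44 and -0.38 in ESC + H/F-PRAMEL7_WT and -1.04 and -0.39 in ESC + H/F-PRAMEL7_ΔN. *Tcf7l1* lies on chromosome 6, and less the median there its difference was 1.21 in ESC + H/F-PRAMEL7_WT and 0.57 in ESC + H/F-PRAMEL7_ΔN. The ligands *Wnt3*, *Wnt3a* and *Wnt8a* were near or below 1 CPM in all libraries.

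Compared directly, ESC + H/F-PRAMEL7_WT had more RNA than ESC + H/F-PRAMEL7_ΔN from *Lefty2* (log2 fold change 1.81, adjusted p = 1.34e-06 from limma), *Lefty1* (1.54), *Otx2* (1.43), *Smad3* (1.28), *Hnf4a* (0.95), *Axin2* (0.57) and *Foxh1* (0.49), and less from *Bmp4* (-0.76), *Tcf15* (-0.49) and *Tdgf1* (-0.41). These 10 genes were the calls of the 3 lists in this comparison, with adjusted p up to 0.0304 from limma. Of them, *Hnf4a* passed the filter only through parental and ESC + H/F-PRAMEL7_WT libraries. *Lefty1*, *Lefty2*, *Otx2* and *Smad3* kept the call whichever library was left out, and the other 6 lost it in at least 1 such fit, with adjusted p up to 0.25 from limma.

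Of the genes called in these 3 lists against parental ESCs, 6 of 14 in ESC + H/F-PRAMEL7_ΔN kept an adjusted p below 0.05 from limma whichever library was left out, namely *Axin2*, *Lefty1*, *Lefty2*, *Otx2*, *Tcf7* and *Tcf7l1*. In ESC + H/F-PRAMEL7_WT 2 of 12 did, *Tcf7* and *Tcf7l1*. The other 8 and 10 lost the call without 1 of the 2 libraries of their own derived line, some of them without other libraries too, with adjusted p up to 0.247 and 0.268 from limma. None of these genes changed its sign under any alternative.

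**Figure D4:**
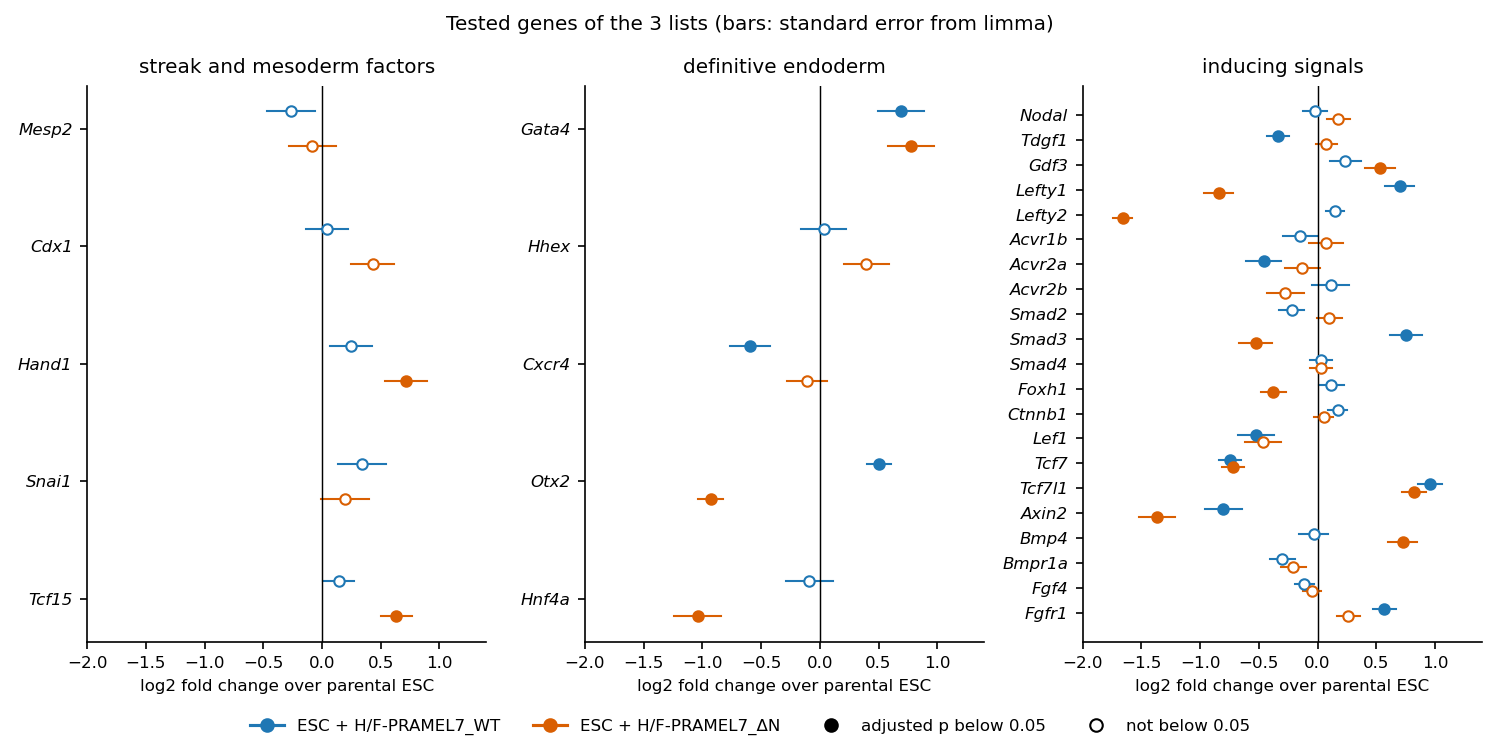
Log2 fold change over parental ESCs, with the standard error from limma, of the tested genes of the 3 lists (5, 5 and 21 genes) in WT (blue) and ΔN (orange). Filled points have an adjusted p below 0.05. *Lefty1*, *Smad3* and *Otx2* lie on opposite sides of 0 in the derived lines, and *Axin2*, *Tcf7* and *Tcf7l1* on the same side.

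Markers of other cell types were read beside these results. Of 9 trophectoderm markers 5 were tested, and in ESC + H/F-PRAMEL7_ΔN 4 were called higher (*Krt8*, *Krt18*, *Hand1* and *Tead4*) and 1 lower (*Tfap2c*), in the same libraries as the higher *Eomes*. Of all tested genes 6.25% were called higher there and 13.6% lower. The calls of *Krt18* and *Hand1* needed both ESC + H/F-PRAMEL7_ΔN libraries, and *Hand1* passed the filter only through them. *Tead4* lies on chromosome 6, and less the median there its difference was 0.74. In ESC + H/F-PRAMEL7_WT *Krt18* and *Tead4* were called lower (log2 fold change -0.49 and -0.32). Both calls were lost under the median-ratio rescaling (adjusted p = 0.0543 and 0.128 from limma). Less the median of chromosome 6, the difference of *Tead4* in ESC + H/F-PRAMEL7_WT was -0.06. The summed level of the 9 markers was 139.5 and 189.5 CPM in the parental line, 138.6 and 139.5 in ESC + H/F-PRAMEL7_WT and 196.7 and 189.7 in ESC + H/F-PRAMEL7_ΔN, and the defining markers *Cdx2*, *Elf5* and *Gata3* stayed between 0 and 0.310 CPM in every library. Of 5 markers of later mesoderm 4 were tested, with *Hand2* without a read. *Tal1* was called higher in both derived lines, and *Tbx20* higher in ESC + H/F-PRAMEL7_ΔN and lower in ESC + H/F-PRAMEL7_WT. *Kdr* and *Gata2* were called in neither line. The summed level of the list was 8.05 and 5.86 CPM in the parental line, 8.25 and 7.65 CPM in ESC + H/F-PRAMEL7_WT and 17.0 and 15.3 CPM in ESC + H/F-PRAMEL7_ΔN. Most of the rise in ESC + H/F-PRAMEL7_ΔN came from *Tal1* (mean 1.31 to 5.18 CPM) and *Tbx20* (3.14 to 7.62). *Kdr* went from 1.28 to 1.49 CPM and *Gata2* from 1.21 to 1.87. Of 11 markers of extraembryonic endoderm 7 were tested. *Gata4* and *Sox7* were called higher and *Pdgfra* lower in ESC + H/F-PRAMEL7_WT, where 8.71% and 16.3% of all tested genes were. These calls needed both ESC + H/F-PRAMEL7_WT libraries. In ESC + H/F-PRAMEL7_ΔN *Gata4* was called higher and *Pdgfra* and *Lamb1* lower. *Pdgfra* exceeded 1 CPM only in the parental libraries and so was tested through the line where it was higher. Its call in ESC + H/F-PRAMEL7_WT was lost under the median-ratio rescaling (adjusted p = 0.0523 from limma). With quantile normalization its adjusted p from limma was 0.0851 in ESC + H/F-PRAMEL7_WT and 0.187 in ESC + H/F-PRAMEL7_ΔN. Formative epiblast markers summed to 257 to 295 CPM in parental ESCs, 403 to 414 in ESC + H/F-PRAMEL7_WT and 165 to 177 in ESC + H/F-PRAMEL7_ΔN. Most of this came from *Dnmt3b*, *Dnmt3a* and *Otx2*, which did not move together. *Otx2* and *Dnmt3b* were called higher in ESC + H/F-PRAMEL7_WT, where *Dnmt3a* had a log2 fold change of -0.07. *Otx2* and *Dnmt3a* were called lower in ESC + H/F-PRAMEL7_ΔN, where *Dnmt3b* was not called. *Pou3f1* was called in neither line. None of the 3 tested neuroectoderm markers was called in either line. Fibroblast markers summed to 41.9 and 55.6 CPM in the parental line, 21.1 and 22.4 in ESC + H/F-PRAMEL7_WT and 43.7 and 38.8 in ESC + H/F-PRAMEL7_ΔN, with *Dcn* and *Lum* at 0. Nearly all of this was *Thy1*, with 39.58 and 52.45, 20.5 and 21.64, and 42.31 and 37.85 CPM in the same order, so the sums describe that gene. Of the 7 ESC markers, 3 were called lower in ESC + H/F-PRAMEL7_WT (*Nanog*, *Zfp42* and *Klf4*), as were 16.3% of all tested genes. In ESC + H/F-PRAMEL7_ΔN 1 was called higher (*Dppa5a*), as were 6.25%. *Nanog* lies on chromosome 6, and its log2 fold change of -0.36 in ESC + H/F-PRAMEL7_WT was -0.11 less the median there. That call was lost under the median-ratio rescaling (adjusted p = 0.0551 from limma). The part of these other cell types in the members' reads was not tested.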

How the data were processed

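The deposited values cover polyadenylated RNA from 2 libraries of each of 3 lines, 6 in all. The study's text describes 3 replicates per line. The authors used SortMeRNA 2.1 against ribosomal reads, Trimmomatic 0.36 for trimming and STAR 2.4.0.1 for mapping on mm10, and deposited RPKM values per gene (the submitters' processing notes also list Bowtie2 2.3.4.3 and Subread 1.4.6-p4). The ChIP samples and the authors' tables of fold changes and p-values from DESeq2 were not used here. Per library, 98.0% to 98.4% of the values up to 20 reads lay within 0.1 of whole reads when multiplied by the gene span of GENCODE vM21, introns included, against 40.1% to 41.9% with exon length. That product, times 1 constant, gave CPM. Of 50978 rows, 176 with repeated or date-like names, 2796 without a match and 66 with several were left out, which left 47940 genes. Tests on log2(CPM + 1) covered genes exceeding 1 CPM in 2 libraries or more, with limma 3.58.1 (R 4.3.3, mean-variance trend, 3 lines in one fit, Benjamini-Hochberg adjustment), tested on simulated data first. Counting intervals are exact at 95%. The genes named were the members, called genes of the lists and, per tested member, the 3 genes most alike. *Tbx6* and *Sox17* were chosen after their values were seen, as were the marker genes given with values. The members and lists were chosen with earlier results of these data known. Tables used python 3.11.15, pandas 2.3.3 and scipy 1.17.1. A gene is not reported here.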

Additional observations from a re-analysis of the deposited data

How the results depend on the processing

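The pseudocount, filter, scaling, variance model, unit, call rule, fits of the compared lines alone and leaving out each library were varied. *Eomes* in ESC + H/F-PRAMEL7_ΔN against parental ESCs kept its call in every alternative that gave it a p but 1. Leaving out 1 library gave log2 fold changes of 0.86 to 1.06, with 0.86 and adjusted p = 0.0579 from limma without replicate 2 of ESC + H/F-PRAMEL7_ΔN. For ESC + H/F-PRAMEL7_WT against parental ESCs that range was -0.034 to 0.315, and the direction turned (-0.034, adjusted p = 0.938 from limma) without replicate 2 of ESC + H/F-PRAMEL7_WT. For ESC + H/F-PRAMEL7_WT against ESC + H/F-PRAMEL7_ΔN it was -0.99 to -0.64, and the call was lost without a filter (-0.82, adjusted p = 0.0624 from limma), without replicate 1 of ESC + H/F-PRAMEL7_WT (-0.64) and without replicate 2 of ESC + H/F-PRAMEL7_ΔN (-0.72). The number of members called in ESC + H/F-PRAMEL7_ΔN against parental ESCs was 1, and it was 0 with a filter of 10 CPM, which removed *Eomes*, 2 with the added voom fit, and 0 to 1 when a library was left out. Between the derived lines it was 1, and 0 without a filter, with the filter of 10 CPM and, at the lowest, when a library was left out (0 to 1). In ESC + H/F-PRAMEL7_WT it was 0 in all 19.

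Counts over all genes moved more. Called higher and lower in ESC + H/F-PRAMEL7_WT, 1125 and 2109 genes became 216 to 1706 and 447 to 2796 when a library was left out, and 621 and 1275 without a filter. In ESC + H/F-PRAMEL7_ΔN, 807 and 1759 became 217 to 1505 and 621 to 2777, and 497 and 1198 without a filter. Between the derived lines, 1409 and 1219 became 388 to 2332 and 307 to 2316. The lowest counts came from leaving out a library of a derived line. Of the genes called in the 3 lists, the median-ratio rescaling lost *Acvr2a*, *Lef1* and *Tdgf1* in ESC + H/F-PRAMEL7_WT and *Foxh1* in ESC + H/F-PRAMEL7_ΔN. The replicate numbers did not pair the libraries, since deviations of same-numbered libraries correlated by 0.21, -0.25 and -0.10 between lines. With the replicate block the adjusted p of *Eomes* from limma was 0.0116 in ESC + H/F-PRAMEL7_ΔN and 0.0198 between the derived lines, with the same calls. For members below 1 CPM, a floor of 3 reads in 1 library was 0.151 to 0.165 CPM.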
